A study of Mus musculus with 6 samples.

Results

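The developmental timing genes described here are *Lin28a*, *Lin28b*, *Trim71*, *Igf2bp1*, *Igf2bp2*, *Igf2bp3*, *Hmga1* and *Hmga2*, 8 of the 32493 genes counted in cultured mouse neural stem cells (NSCs). They were picked by name from a known regulatory circuit, and the circuit itself was chosen by the measured values of *Lin28b* and its relatives in the comparison of cko with wt NSCs. Their values in that comparison are therefore a description, and their calls in the test over all genes are no evidence about them. RNA-seq was run to ask what the loss of miR-151 changes in the transcriptome of NSCs. The cells came from lateral ventricle tissue of C57BL/6J embryos at E14.5 and were cultured for 3 generations in a DMEM/F12 medium with B27, EGF and bFGF. Embryos of the cko group were fl/fl for a floxed miR-151 allele and had Emx1-IRES-Cre, which expresses Cre recombinase in the dorsal telencephalon, so that cells of other origin in the dissection keep the miRNA. The control embryos, ctrl in the study and wt in the sample labels, carried the same floxed alleles without Cre. No untouched wild type was compared.

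Raw counts per gene were deposited for 3 wt and 3 cko samples, but the column of wt 2 equalled the rounded mean of wt 1 and wt 3 in 32493 of 32493 genes and carried no counts of its own. The comparison was made between 2 wt libraries, with totals of 22773559 (wt 1) and 18950862 (wt 3) counts, and 3 cko libraries, with 17883796 (cko 1), 23335736 (cko 2) and 21736269 (cko 3). The *Mir151* hairpin was not analysed here, so the deletion was not checked in these libraries. The study describes the cko and ctrl mice as littermates, but neither it nor the labels say which libraries came from which embryo or litter, and the p-values below then measure only the spread between these 5 libraries, which may be technical. In such bulk RNA, fewer cells of a type and less RNA per cell cannot be told apart.

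LIN28A and LIN28B are RNA-binding proteins that bind the precursors of let-7 microRNAs and block their maturation, and let-7 in turn represses the *Lin28* mRNAs through their 3′UTRs. In the developing cortex LIN28 levels are high in early progenitors and decline as neurogenesis proceeds, while let-7 levels rise. The let-7 family also represses *Hmga2*, the *Igf2bp* genes and *Trim71*, which are known as oncofetal genes because they are active in early embryos and again in tumours. The HMGA2 protein sustains self-renewal of fetal neural stem cells, and its decline with age follows the rise of let-7. The microRNA miR-125, the vertebrate relative of the worm timing gene *lin-4*, represses *Lin28* and *Trim71* as well.

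The seeds of let-7 and miR-125 and their matches in these genes are shown first. Every gene of the group held a let-7 match, but only some held a miR-125 match. RefSeq sequences (GRCm38.p6) were matched for 13 mature miRNAs of the let-7, miR-98 and miR-125 families. Of these, 10 shared the let-7 seed GAGGUAG (bases 2 to 8), 2 shared the miR-125 seed CCCUGAG, and let-7j differed in its seed. In the following lines the seed is in capitals.
let-7a-5p: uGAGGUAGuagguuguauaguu
let-7g-5p: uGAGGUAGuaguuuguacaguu
miR-98-5p: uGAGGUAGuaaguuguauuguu
miR-125b-5p: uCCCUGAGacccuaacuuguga

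Seed matches were searched on the transcribed strand, in the longest 3′UTR annotated for each of 21037 protein-coding genes. The let-7 match, CTACCTC, stood in 9.02% of these 3′UTRs, and the miR-125 match, CTCAGGG, in 13.1%. The end of the first motif can overlap the start of the second, and the joined form CTACCTCAGGG was found in 14 3′UTRs, none of them of the 8 timing genes. All 8 of 8 timing genes held at least 1 let-7 match, 21 in all. Of these, 13 were followed by an A, a base known to make such sites more effective. *Lin28b*, *Trim71*, *Igf2bp1* and *Hmga2* held 4 matches each, a number reached by 12 of the 21037 genes. *Lin28a* held 2, and *Igf2bp2*, *Igf2bp3* and *Hmga1* held 1 each. The genes are textbook let-7 targets, so that their matches are a property of the choice. Long 3′UTRs hold more matches: that of *Lin28b* has 4445 bases against a median of 960. At least 1 let-7 match stood in 33.9% of 3′UTRs at least as long, and the share of these with 4 matches was not computed. The miR-125 match was found 1 time in each of *Lin28a*, *Lin28b*, *Trim71* and *Igf2bp3*. A match is a description of sequence, and binding was not measured. The first let-7 match of each 3′UTR is shown in capitals, with 15 bases before it and 1 after it.
Lin28a: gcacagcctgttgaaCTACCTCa
Lin28b: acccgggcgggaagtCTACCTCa
Trim71: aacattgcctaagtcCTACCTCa
Igf2bp1: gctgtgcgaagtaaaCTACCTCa
Igf2bp2: acacacaaataaaagCTACCTCa
Igf2bp3: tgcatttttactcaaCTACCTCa
Hmga1: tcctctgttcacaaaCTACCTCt
Hmga2: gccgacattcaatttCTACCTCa

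In GRCm38 these windows lie in 3′UTR exons at chr4:134005189-134005211 (*Lin28a*), chr10:45381022-45381044 (*Lin28b*), chr9:114512472-114512494 (*Trim71*), chr11:95961778-95961800 (*Igf2bp1*), chr16:22059473-22059495 (*Igf2bp2*), chr6:49086787-49086809 (*Igf2bp3*), chr17:27563277-27563299 (*Hmga1*) and chr10:120364224-120364246 (*Hmga2*). All are on the minus strand except that of *Hmga1*. The windows of *Lin28b* and *Hmga2* start close to the stop codon, with the matches at base 36 and base 58 after it, whereas the first match of *Igf2bp1* is at base 1715. The other positions appear in the map of the 3′UTRs.

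**Figure D1:**
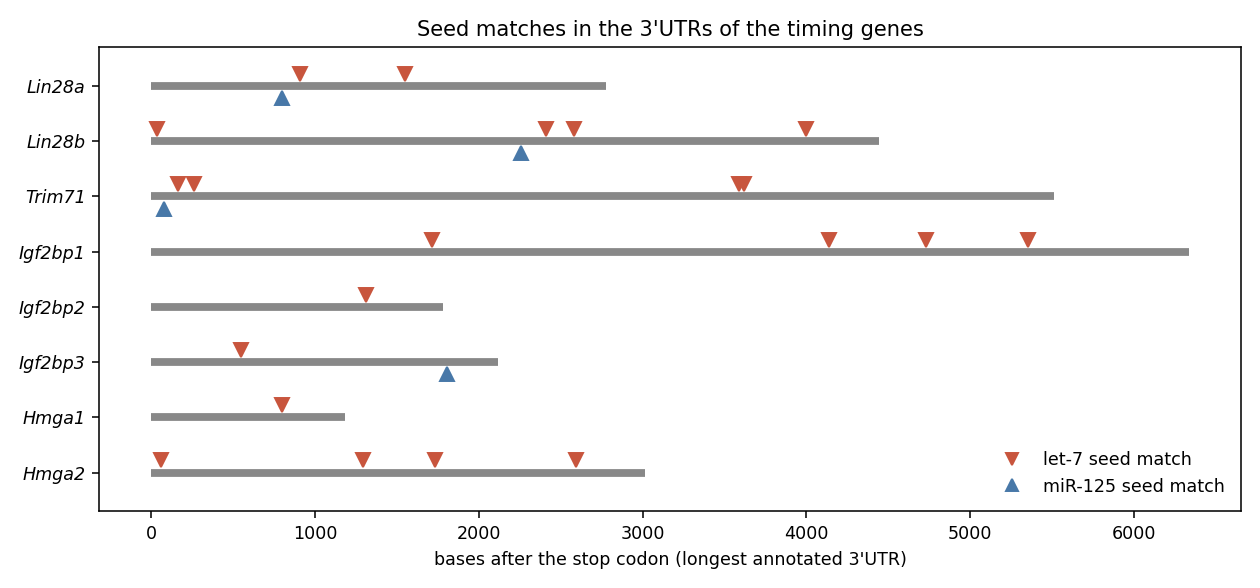
Positions of let-7 (red) and miR-125 (blue) seed matches in the longest 3′UTR annotated per timing gene, drawn as a grey bar from the stop codon, in bases. *Lin28b*, *Trim71*, *Igf2bp1* and *Hmga2* carry 4 let-7 matches each, and the 3′UTRs run from 1183 bases (*Hmga1*) to 6337 bases (*Igf2bp1*).

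*Lin28b* (ENSMUSG00000063804, chr10:45376620-45486395), the paralogue of *Lin28a*, was counted 21 times in wt 1 and 17 times in wt 3, and 0 times in each of cko 1, cko 2 and cko 3. Both wt libraries lay at the same low level, 0.917 and 0.907 CPM (counts scaled to library size and normalized by TMM), and every cko library was empty. The exact 95% Poisson intervals of the wt counts ran from 13 to 32.1 and from 9.90 to 27.2. At the wt level, the 62955801 counts of the cko libraries together would hold 57.3 *Lin28b* counts. Set against the floor of 3 counts in the shallowest cko library (0.168 CPM), *Lin28b* was at least 5.42-fold lower in cko NSCs from the mean of the wt libraries and at least 5.35-fold from wt 3. With 3.69 counts, the upper end of the exact interval of 0, in place of 3, the bound from the mean was 4.41-fold. Such intervals and floors cover counting error only. *Lin28b* was the only gene of 32493 with at least 15 counts in each wt library and 0 in every cko library. The reverse pattern was found in 0 genes. The limit of 15 was set after the counts were seen, and lies just under the 17 counts of *Lin28b* in wt 3. *Igf2bp1*, with 7 and 36 counts in wt 1 and wt 3 and 0 in every cko library, missed it in wt 1 alone.

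The genes on either side of *Lin28b* that passed the filter on low counts were looked up after its values were seen. *Bves* was counted 74 and 83 times in wt 1 and wt 3, and 85, 105 and 110 times in cko 1, cko 2 and cko 3. *Hace1* had 709 and 459 counts in the wt libraries and 560, 699 and 627 in the cko libraries. Neither gene was low in cko NSCs, with log2 fold changes of 0.32 (SE 0.22) and 0.11 (SE 0.12), and neither passed the test. No stretch of 50 bases of the longest *Lin28b* transcript was shared with a transcript of another annotated gene, on either strand.

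*Lin28a* (ENSMUSG00000050966, chr4:134003330-134018841), the form found in pluripotent cells and the earliest neural tube, was counted 0 times in wt 1 and wt 3 and 1 time in each cko library. All 5 libraries were under the floor of 3 counts, so that no fold can be given and *Lin28a* was not detectable at this depth in either genotype. Of the pluripotency genes, *Pou5f1* and *Zfp42* were also at 3 counts or fewer in every library, whereas *Nanog* had 5 to 17 counts and *Esrrb* 63 to 197.

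*Trim71* (ENSMUSG00000079259, chr9:114507133-114564369) encodes a ubiquitin ligase and mRNA repressor, the vertebrate form of worm *lin-41*. Its level was 2.45 and 2.72 normalized CPM in wt 1 and wt 3, and 1.73, 2.53 and 2.76 in cko 1, cko 2 and cko 3, from 31 to 60 counts per library. The genotypes overlapped, with cko 1 lowest and cko 3 highest of all 5 libraries. The log2 fold change was -0.13 with an SE of 0.28, and it was 0.03 without cko 1.

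The IGF2BP proteins bind mRNAs, among them *Igf2*, *Myc* and *Actb*, and protect or localize them. *Igf2bp1* (ENSMUSG00000013415, chr11:95957163-96005940), which supports the fast early divisions of cortical progenitors, was counted 7 times in wt 1, 36 times in wt 3 and 0 times in each of the 3 cko libraries. All its counts were in wt NSCs, but the wt libraries differed from each other, with exact 95% Poisson intervals of 2.81 to 14.4 and 25.2 to 49.8 counts. *Igf2bp1* was removed by the filter on low counts. Against the floor of 3 counts in cko 1, it was at least 6.58-fold lower from the mean of the wt libraries (5.35-fold with 3.69 counts in place of 3), at least 1.83-fold from wt 1 and at least 11.3-fold from wt 3. The nearest tested genes on either side, *B4galnt2* and *Snf8*, had log2 fold changes of 0.05 (SE 0.64) and 0.15 (SE 0.08).

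*Igf2bp2* (ENSMUSG00000033581, chr16:22059009-22163299), the form that stays active in adult tissues, was at 76.6 and 41.5 normalized CPM in wt 1 and wt 3, and at 53.9, 57.4 and 56.6 in cko 1, cko 2 and cko 3. The wt libraries stood on either side of the cko libraries, 1.85-fold apart, while the cko libraries lay within 1.07-fold of each other. The log2 fold change was -0.08 with an SE of 0.22. It was -0.45 without wt 3 and 0.42 without wt 1, so that its sign was that of the wt library kept.

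*Igf2bp3* (ENSMUSG00000029814, chr6:49085223-49214957), a form silenced in most tissues after birth, was at 71.6 and 74.4 normalized CPM in wt 1 and wt 3, and at 83.2, 96.6 and 95.4 in cko 1, cko 2 and cko 3. Every cko library lay above both wt libraries, with cko 1 closest to them. The log2 fold change was 0.33 with an SE of 0.09, a 1.26-fold difference, and between 0.28 (without cko 2) and 0.39 (without cko 1) when a library was left out. Its exons overlap 1529 bases of *Malsu1* on the opposite strand, and 34.5% of the 50-base stretches of its longest transcript also stand in *Malsu1* transcripts. Whether strand was used in counting is not given in the sources used here, so that reads of both genes may be mixed. *Malsu1* had 255 and 232 counts in the wt libraries and 216, 280 and 293 in the cko libraries, against 1394 to 2254 for *Igf2bp3*.

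HMGA proteins bind AT-rich DNA and open chromatin. *Hmga1* (ENSMUSG00000046711, chr17:27556497-27563674) was at 84.4 and 89.5 normalized CPM in wt 1 and wt 3, and at 93.2, 115 and 99.5 in cko 1, cko 2 and cko 3. The cko libraries were all above the wt libraries, but cko 1 stood no farther from wt 3 than wt 3 from wt 1. The log2 fold change was 0.24 with an SE of 0.10. *Hmga1* shares 69.1% of its 50-base stretches with *Hmga1b*, a near-identical copy, and how the counter split such reads is not given in the sources used here. *Hmga1b* itself had 185 and 155 counts in the wt libraries and 180, 265 and 194 in the cko libraries, with a log2 fold change of 0.31 (SE 0.16).

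*Hmga2* (ENSMUSG00000056758, chr10:120361275-120476469), the let-7 target with the best known part in neural stem cell ageing, was at 12.1 and 18.7 normalized CPM in wt 1 and wt 3, and at 12.0, 19.8 and 19.8 in cko 1, cko 2 and cko 3. The genotypes overlapped, since wt 1 and cko 1 were both low and the other 3 libraries high and close to each other. The log2 fold change was 0.17 with an SE of 0.27, and it was -0.12 without wt 1 and 0.52 without wt 3.

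**Figure D2:**
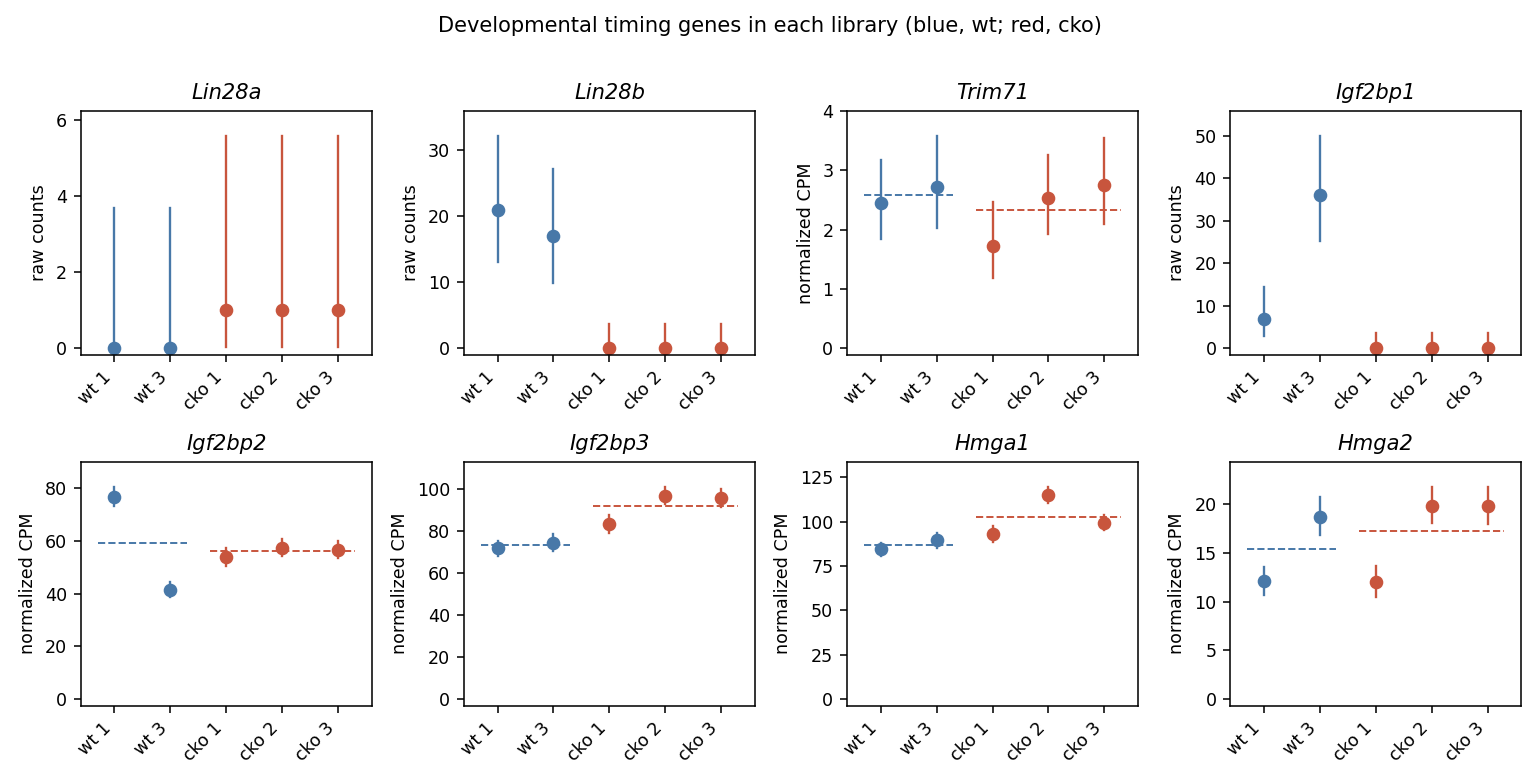
Level of each timing gene in each library (blue, wt; red, cko). *Lin28a*, *Lin28b* and *Igf2bp1* are drawn as raw counts and the others as normalized CPM, bars are exact 95% Poisson intervals, and dashed lines are group means; *Lin28b* (21 and 17 counts) and *Igf2bp1* (7 and 36 counts) are at 0 in every cko library, while *Igf2bp2* differs 1.85-fold between the wt libraries.

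Levels of different genes were compared per length, as TPM from the union of annotated exons. In wt NSCs the mean TPM was 164 for *Hmga1*, 35.9 for *Igf2bp3*, 32.2 for *Igf2bp2*, 9.08 for *Hmga2*, 1.11 for *Trim71*, 0.456 for *Igf2bp1*, 0.404 for *Lin28b* and 0 for *Lin28a*. The 2 HMGA genes, *Igf2bp2* and *Igf2bp3* were the abundant genes, and *Trim71*, *Igf2bp1* and the *Lin28* genes the scarce ones. With this length *Igf2bp3* and *Igf2bp2* could not be ordered in wt NSCs, because *Igf2bp2* ran from 22.1 to 42.3 TPM, and neither could *Igf2bp1* and *Lin28b*. With the length of the longest transcript instead, *Igf2bp3* was at 51.4 and 51.5 TPM in wt 1 and wt 3. *Igf2bp2* was then at 48.3 and 25.2, below *Igf2bp3* in both. The wt means of *Lin28b* (0.518) and *Igf2bp1* (0.402) changed places. In cko NSCs the order of the 5 highest genes was the same, with 190 TPM for *Hmga1*, 44.3 for *Igf2bp3*, 29.8 for *Igf2bp2*, 10 for *Hmga2* and 0.989 for *Trim71*. There *Igf2bp3* and *Igf2bp2* did not overlap, since *Igf2bp3* was at 39.6 TPM or more in each cko library and *Igf2bp2* at 30.6 or less.

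Of the 8 timing genes, 6 passed the filter on low counts that left 16710 genes for the test, and *Lin28a* and *Igf2bp1* did not. *Lin28b*, with 0 counts in every cko library, passed it only through its wt counts. With edgeR (quasi-likelihood test, p adjusted by Benjamini-Hochberg, threshold 0.05), 1 of the 6 was higher in cko NSCs (*Igf2bp3*) and 1 lower (*Lin28b*), where 7.86% of all tested genes were higher and 8.57% lower. By a fold rule that asks for more than 0.9 in log2 and for p below 0.01 before adjustment, 0 of the 6 were higher and 1 lower (*Lin28b*), against 2.39% and 4.17% of all tested genes. The genotypes did not overlap in 3 of the 6 (*Lin28b*, *Igf2bp3* and *Hmga1*) and in 49.7% of all tested genes. The genes behind these counts changed with the setting. *Igf2bp3*, at an adjusted p of 0.0466 in edgeR with all 5 libraries, was not called without cko 2 or cko 3. Nor was it called with replicate number as a block (adjusted p = 0.149 in edgeR). Without wt 1, a fit with 1 wt library, its log2 fold change was 0.29 and no call is given. *Igf2bp2* had log2 fold changes of 0.42 without wt 1 and -0.45 without wt 3. DESeq2 gave *Lin28b* no adjusted p and called *Igf2bp1* lower in its place. The genes were selected on this contrast, and nothing is read from these counts.

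For the 3 tested timing genes with the largest absolute fitted fold changes, the protein-coding genes of most similar pattern were found among 12531 genes, by the root mean square (RMS) difference of log2 CPM centred on its mean over 5 libraries. The nearest to *Lin28b* were *Eya2* and *Myrf*, with RMS differences of 0.12 to 0.28. *Eya2* was at 6.03 and 6.46 normalized CPM in wt 1 and wt 3 and at 0.448, 0.600 and 0.506 in the cko libraries, high in both wt libraries and low in all cko libraries. As *Lin28b* had no counts in cko NSCs, its log2 values there, and with them its nearest genes, rest on the prior count of 2 that was added before taking logs. *Igf2bp3* was nearest to *Shkbp1*, *Pdap1* and *Ncaph2*, with RMS differences of 0.020 to 0.021, and *Hmga1* to *Ttc21b*, *Helq* and *Tedc2*, with 0.013 to 0.023.

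Genes of the same circuit and relatives of the timing genes were set in 6 lists of 101 counted genes in all, of which 95 were tested, with 22 called higher and 10 called lower in cko NSCs by edgeR. Their median log2 fold change was 0.06, beside -0.0026 over all tested genes, of which 7.86% were higher and 8.57% lower, the shares to set beside the count of each list that follows. Leaving out single libraries moved these counts to 9 higher and 3 lower without cko 2 or without cko 3, while 1314 and 1432 calls over all genes fell to 317 and 416 without cko 2 and to 336 and 457 without cko 3.

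In the route that makes and destroys let-7, 1 of 13 tested genes was higher and 0 lower, with a median log2 fold change of 0.06. *Hnrnpa1*, a splicing factor that binds the let-7a precursor, was at 743 ± 54.2 (SD, n = 2) normalized CPM in wt and 994 ± 32.4 (SD, n = 3) in cko NSCs, a log2 fold change of 0.42 (SE 0.08, adjusted p = 0.0171 in edgeR). It was also the most abundant gene of the list, and its call was lost without cko 1, cko 2 or cko 3 (adjusted p up to 0.112 in edgeR, and from 8.33e-05 over all 11 alternatives). The list gave 2 higher genes without wt 1 and 1 lower gene without wt 3. The terminal transferases *Tut4* and *Tut7*, through which LIN28 marks let-7 precursors for decay, had log2 fold changes of 0.07 (SE 0.08) and 0.06 (SE 0.08), and *Dis3l2*, the nuclease that degrades them, 0.32 (SE 0.10, adjusted p = 0.0721 in edgeR). These 3 were singled out after their values were seen.

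Mature let-7 is not measured by these libraries, but the transcripts that carry its hairpins are counted. All 15 annotated hairpins of let-7, miR-98 and miR-125 lie inside 10 counted host genes on the same strand, of which 9 were tested. In edgeR 0 of them were higher and 0 lower at an adjusted p under 0.05, with 0.0962 the smallest adjusted p (*Wdr82*, host of let-7g, log2 fold change 0.21, SE 0.07); 1 of them had an unadjusted p under 0.05, and DESeq2 called 0. *3110039I08Rik*, which holds the hairpins of let-7a-2 and miR-125b-1, was at 372 and 253 normalized CPM in wt 1 and wt 3 and at 340, 333 and 380 in the cko libraries. *Mir99ahg*, host of let-7c-1 and miR-125b-2, had 13.3 and 7.68 in wt 1 and wt 3, and 13.5, 14.0 and 11 in cko 1, cko 2 and cko 3. Negative log2 fold changes, also not called, were found in other hosts. They were -0.70 (SE 0.41) for *D630033A02Rik* (let-7i), -0.33 (SE 0.30) for *Lncppara* (let-7b and let-7c-2) and -0.21 (SE 0.26) for *6720427I07Rik* (let-7a-1, let-7d and let-7f-1). In *3110039I08Rik* and *Mir99ahg* wt 3 was the lowest of the 5 libraries, and wt 1 lay among the cko libraries. The hosts were looked up after the values of the timing genes were seen.

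Among other known let-7 targets, 23 of 26 were tested, 3 were higher and 2 lower, and the median log2 fold change was -0.04. *Cdk6*, the kinase of early G1, rose between wt (30 ± 3.65 normalized CPM, SD, n = 2) and cko NSCs (75.3 ± 5.97, SD, n = 3), with a log2 change of 1.33 (SE 0.11, adjusted p = 0.00109 in edgeR). In the other direction *Irs2*, an adaptor of the insulin and IGF receptors, fell between wt (176 ± 7.41 normalized CPM, SD, n = 2) and cko NSCs (80.2 ± 6.86, SD, n = 3), with a log2 change of -1.14 (SE 0.09, adjusted p = 0.00106 in edgeR). The death receptor gene *Fas* was at 8.40 ± 0.199 (SD, n = 2) in wt and 2.98 ± 0.523 (SD, n = 3) in cko NSCs (adjusted p = 0.00493 in edgeR). The most abundant gene, *Ccnd2*, was at 516 and 882 normalized CPM in the wt libraries and 533, 559 and 525 in the cko libraries (log2 fold change -0.38, SE 0.20, adjusted p = 0.230 in edgeR). The log2 fold change of *Ccnd2* ran from -0.72 to 0.07 over 11 alternatives, so that its sign depended on the setting. Without single libraries the list gave 1 to 5 higher genes (1 without cko 2 or cko 3, 5 without wt 3) and 2 to 5 lower ones (4 without wt 1, 5 without wt 3).

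The number of let-7 matches was then set beside the test across all coding genes other than the 8, a grouping made after the values were seen. Of 11962 tested genes with no match, 9.27% were higher and 9.88% lower, with a median log2 fold change of 0.0057. Of 1248 genes with 1 match, 9.21% were higher and 11.7% lower (median -0.03), and of 148 genes with 2 matches 10.1% and 8.11% (median 0.0077). These counts moved when libraries were left out. Genes with 1 match went from 115 higher and 146 lower to 73 and 92 without cko 1, 25 and 41 without cko 2, and 29 and 44 without cko 3. Those with 2 matches went from 15 and 12 to 4 and 2 without cko 2 or cko 3, and the lower ones to 23 without wt 1. Among 22 genes with 3 or more matches, 1 was higher and 1 lower in edgeR, with a median of -0.05. These were *Trim67* (log2 fold change 0.92, SE 0.19, adjusted p = 0.0189 in edgeR) and *Zfp512b* (-0.30, SE 0.07, adjusted p = 0.0343 in edgeR), of which neither was called without cko 2 (adjusted p = 0.0837 and 0.146 in edgeR) or without cko 3 (0.0868 and 0.102), and *Zfp512b* also not without cko 1 (0.0849) or wt 3 (0.0628). The group gave 2 higher genes without wt 3 and 2 lower genes without wt 1. *Nr6a1*, whose 3′UTR holds the most matches (8), had a log2 fold change of -0.17 (SE 0.14). The medians of all 4 groups thus lay within 0.06 of each other on the log2 scale, and were not tested against each other.

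Genes known to lie downstream of the timing factors were split. Of 15 tested, 2 were higher and 4 lower (median log2 fold change -0.01). *Ccnb2*, a mitotic cyclin gene activated by HMGA2, rose between wt (25.4 ± 1.62 normalized CPM, SD, n = 2) and cko NSCs (70.3 ± 10.3, SD, n = 3), with a log2 change of 1.47 (SE 0.14, adjusted p = 0.00171 in edgeR). *Ctnnb1*, whose mRNA is bound by IGF2BP1, had 0.33 (SE 0.07, adjusted p = 0.0261 in edgeR), a call lost without cko 1, cko 2 or cko 3 (adjusted p up to 0.161). *Cdkn2b*, the gene of the cell cycle inhibitor p15, fell between wt (17.9 ± 1.06 normalized CPM, SD, n = 2) and cko NSCs (7.13 ± 0.636, SD, n = 3), with a log2 change of -1.33 (SE 0.14, adjusted p = 0.00229 in edgeR). *Junb*, an activator of the *Cdkn2* locus that HMGA2 is known to restrain, had -0.82 (SE 0.17, adjusted p = 0.0179 in edgeR; not called without cko 2 or cko 3, adjusted p up to 0.0904). *Actb*, the most abundant gene and the classic cargo of IGF2BP1, was at 1363 and 1413 normalized CPM in the wt libraries and 1411, 1487 and 1568 in the cko libraries (log2 fold change 0.10, SE 0.08). *Igf2* did not pass the filter, with at most 6 counts in a library. Without cko 2 or without cko 3, the list gave 1 higher and 1 lower gene, and without cko 1, 1 higher and 2 lower.

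The coding-region complex that IGF2BP proteins join, and other mRNA-binding partners, gave 4 higher and 0 lower of 11 tested genes, with a median log2 fold change of 0.17. The RNA helicase gene *Dhx9* rose between wt (284 ± 30.2 normalized CPM, SD, n = 2) and cko NSCs (417 ± 8.64, SD, n = 3), with a log2 change of 0.55 (SE 0.09, adjusted p = 0.00781 in edgeR). *Khdrbs1*, the gene of the splicing regulator SAM68, had 0.37 (SE 0.07, adjusted p = 0.0140 in edgeR). *Hnrnpu*, the most abundant, had 0.12 (SE 0.07, adjusted p = 0.312 in edgeR). Without cko 2 or without cko 3, 0 genes of the list were called (adjusted p of 0.0573 and 0.0560 for *Dhx9*, 0.0948 and 0.0904 for *Khdrbs1*).

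Other factors that set the timing of cortical progenitors gave 6 higher and 2 lower of 18 tested genes, with a median log2 fold change of 0.26. *Lhx2*, which keeps cortical progenitors in their early state, rose between wt (54.3 ± 3.93 normalized CPM, SD, n = 2) and cko NSCs (85.2 ± 5.49, SD, n = 3; log2 fold change 0.65, SE 0.09, adjusted p = 0.00524 in edgeR). *Ezh2*, the histone methyltransferase of Polycomb, had 0.62 (SE 0.09, adjusted p = 0.00555 in edgeR), and the bHLH gene *Tcf4*, the most abundant, 0.56 (SE 0.09, adjusted p = 0.00777 in edgeR; not called without cko 2 or cko 3, adjusted p up to 0.0598). *Zbtb20*, a repressor that acts in later progenitors, had -0.42 (SE 0.09, adjusted p = 0.0237 in edgeR). *Nr2f2*, the COUP-TFII gene that helps progenitors to become competent for glia, was at 3.01 and 5.28 normalized CPM in the wt libraries and 1.45, 1.29 and 1.93 in the cko libraries (-1.40, SE 0.33, adjusted p = 0.0290 in edgeR). The calls of *Zbtb20* and *Nr2f2* were lost without cko 1, cko 2 or cko 3, and that of *Nr2f2* also without wt 3 (adjusted p up to 0.107 and 0.120). The 6 higher genes became 2 without cko 2 or without cko 3.

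Of 15 tested genes related to the timing genes by a protein domain or by family name, 6 were higher and 2 lower (median log2 fold change 0.13). With single libraries left out, 5 or 6 were higher, while the 2 lower became 0 without cko 2 or cko 3, 1 without cko 1 and 3 without wt 3. All 6 higher genes belong to the HMGB and HMGN families, which share with HMGA the name high mobility group but have other DNA- or nucleosome-binding domains. *Hmgb2* rose between wt (132 ± 13.3 normalized CPM, SD, n = 2) and cko NSCs (274 ± 23.8, SD, n = 3; log2 fold change 1.06, SE 0.11, adjusted p = 0.00192 in edgeR), and *Hmgn5* had 0.85 (SE 0.09, adjusted p = 0.00253 in edgeR). *Hmga1* and *Hmga2*, at 0.24 and 0.17, lay below these values. The cold-shock domain gene *Csdc2*, whose product shares a domain type with LIN28, had -1.31 (SE 0.23, adjusted p = 0.0106 in edgeR; not called without cko 2 or cko 3, adjusted p up to 0.0596). *Trim3*, which shares the NHL repeats of TRIM71, had -0.29 (SE 0.08, adjusted p = 0.0494 in edgeR), a call lost without any 1 library but wt 1 (adjusted p up to 0.146).

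**Figure D3:**
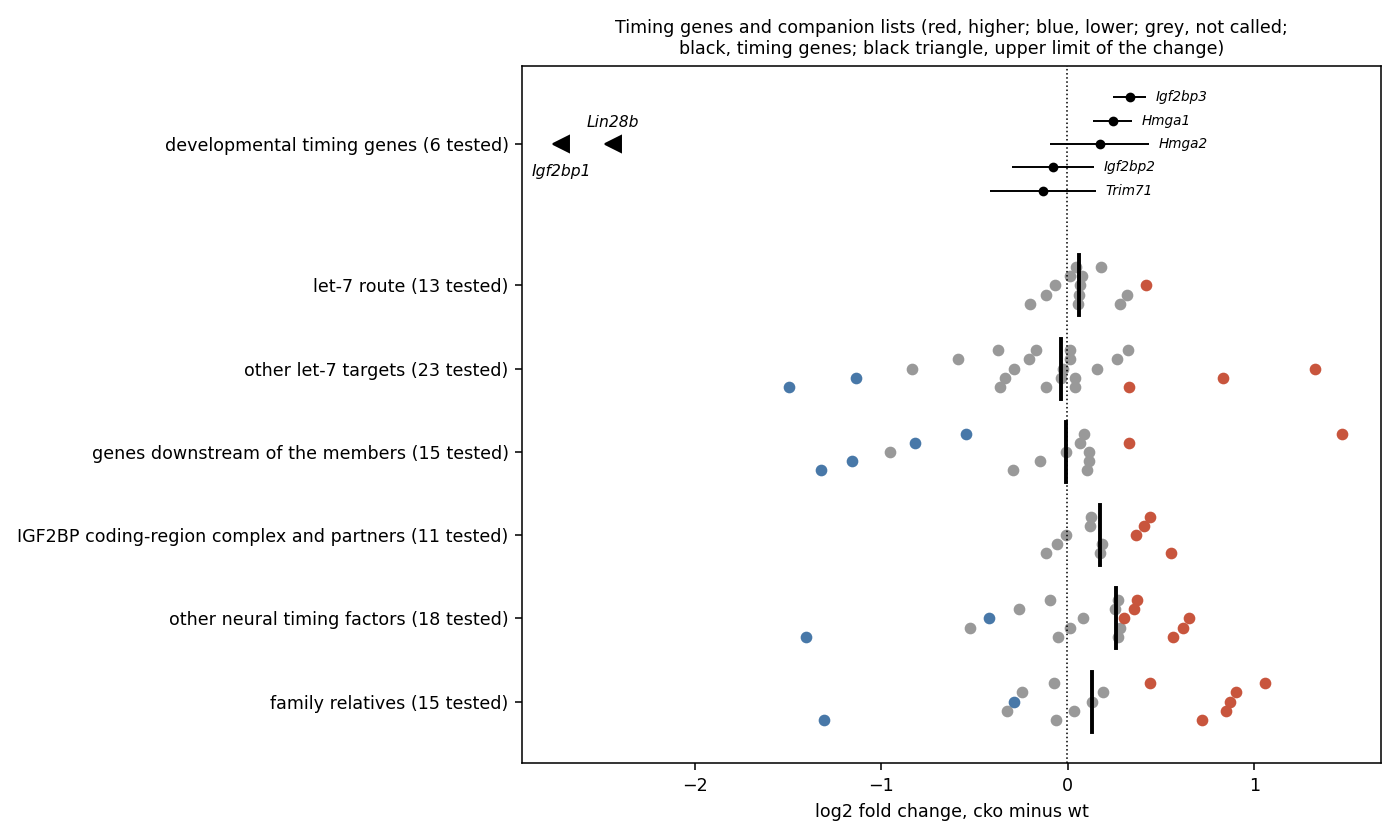
Log2 fold changes (cko minus wt) of the timing genes, with standard errors, and of the tested genes of 6 companion lists; red genes were higher and blue genes lower at an adjusted p under 0.05 in edgeR, black bars are list medians, and the dotted line is the median of all tested genes. Triangles mark the upper limits that the floor of 3 counts sets for *Lin28b* (at least 5.42-fold lower) and *Igf2bp1* (at least 6.58-fold lower, not tested).

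The label NSC was checked against marker lists. All 12 NSC markers were tested, *Sox2* at 556 to 626 normalized CPM in every library, and 4 were higher (6 without wt 1) and 1 lower (0 without cko 2, 2 without wt 3) in cko NSCs. Their summed level was 8798 and 7704 normalized CPM in wt 1 and wt 3 and 9791, 9203 and 9070 in cko 1, cko 2 and cko 3, with *Vim* the most abundant. Neuron markers were less abundant than NSC markers, with *Map2* the most abundant. Their sums were 1350 and 1225 normalized CPM in wt 1 and wt 3 and 1367, 1344 and 1378 in the cko libraries. Of 10 tested, 2 were higher and 1 lower in cko NSCs (2 lower without cko 1). The dorsal telencephalic marker *Emx2* was at 26 to 31 normalized CPM in all 5 libraries.

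Many astrocyte markers and several oligodendrocyte markers fell in the cko libraries, where *Lin28b* and *Igf2bp1* were at 0. Of 10 astrocyte markers 7 were lower and 0 higher (median log2 fold change -1.11), and their sum was 6703 and 5522 normalized CPM in wt 1 and wt 3 and 3996, 2166 and 2311 in the cko libraries, with *Apoe* the most abundant. The 7 lower genes became 2 without cko 2 or without cko 3, and 1 gene was higher without wt 1. Of 10 oligodendrocyte lineage markers 5 were lower and 2 higher (median -0.41). Their sum, led by *Olig1*, was 3217 and 3840 in the wt libraries and 3512, 3765 and 3636 in the cko libraries. The sum hid opposite moves, since the early genes *Olig1* and *Olig2* were higher (without cko 2 or cko 3 adjusted p = 0.0812 and 0.0686 for *Olig1*, and 0.199 and 0.155 for *Olig2*, in edgeR, with *Olig2* also not called without cko 1, 0.0914, or wt 1, 0.0649) while *Sox10*, *Myrf*, *Mbp* and *Cnp* were lower. None of the glial markers was at 0 in all libraries. The part of these cells in the values of the timing genes was not tested.

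Other cell types left few counts. Microglia and blood markers summed to at most 1.60 normalized CPM in a library, with *Alas2* the most abundant, and *Cx3cr1*, *Hba-a1* and *Hbb-bs* were at 0 in all 5. Endothelial and mural markers summed to 5.76 to 7.40, led by *Kdr*, with *Cdh5* at 0, and 0 of 3 tested were called. Pluripotent and germ cell markers summed to 9.01 to 14.0, led by *Esrrb*, with 0 of 3 called (1 higher without wt 3). Among them *Ddx4* was at 7.08 and 6.99 in wt 1 and wt 3 and at 3.02, 4.76 and 4.18 in the cko libraries (log2 fold change -0.81, adjusted p = 0.0508 in edgeR), lower in every cko library and called in 6 of 11 alternatives, none of them with a library left out; its part in the result was not tested. Mesenchymal and meningeal markers summed to 59.0 and 69.4 in wt 1 and wt 3 and to 47.3, 46.0 and 45.9 in the cko libraries, led by *Prrx1*, with 1 of 4 tested lower (3 without wt 1). Choroid plexus and cortical hem markers summed to 9.13 and 9.07 in the wt libraries and to 1.96, 2.87 and 1.75 in the cko libraries. Most of that sum was *Otx2*, the only tested gene of the list, which was lower in cko NSCs (2 genes of the list without wt 1), and *Ttr* had at most 23 counts in a library. The part of the mesenchymal and choroid plexus markers in the result was not tested.

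**Figure D4:**
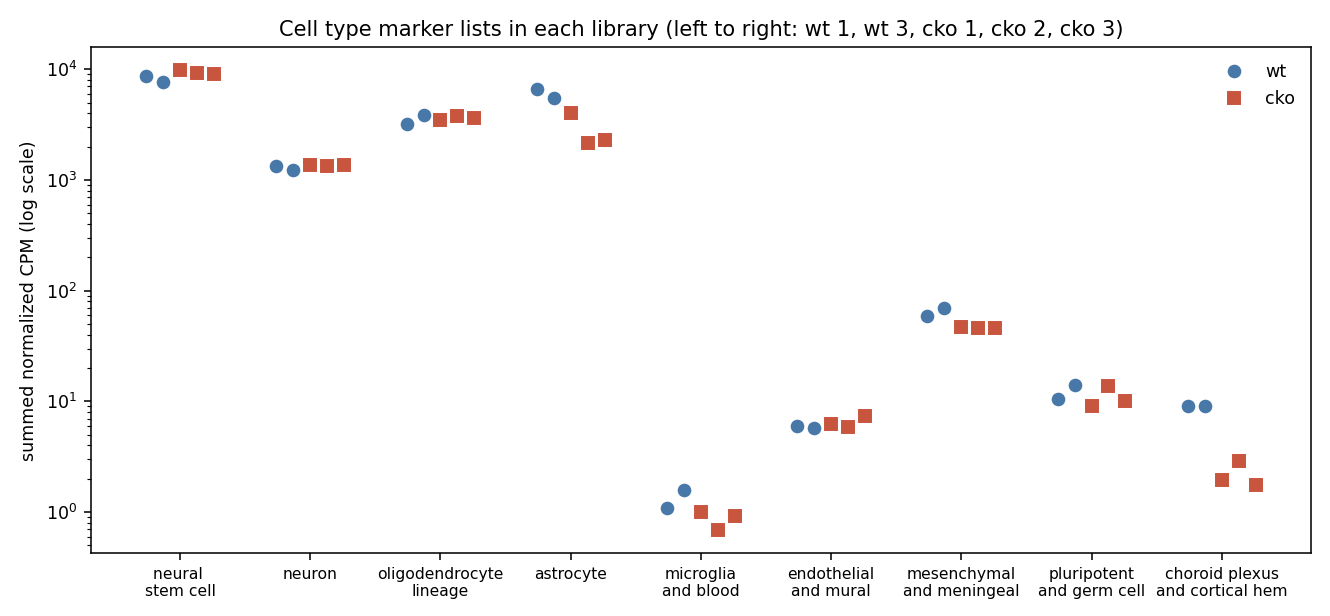
Summed normalized CPM (log axis) of 9 cell type marker lists in each of the 5 libraries (blue circles, wt; red squares, cko). NSC markers are the most abundant list in every library, and the astrocyte sum falls from 6703 and 5522 in wt to 3996 or less in cko NSCs.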

How the data were processed

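Raw counts per gene were taken as the authors deposited them. The paper names FastQC, NGSQC and HISAT2 with mm10, the sample labels name GRCm39, and the counter, annotation and strand setting are not given in the sources used here. The paper names TRIzol for RNA extraction and the labels an RNeasy kit. The members and lists were chosen with earlier results of these data known. The averaged column of wt 2 was left out. Of 32493 gene identifiers, 31836 were matched to GENCODE M21 (GRCm38). Counts were filtered with filterByExpr, scaled by TMM and tested in edgeR 4.0.16 (R 4.3.3), with p adjusted by Benjamini-Hochberg over 16710 genes and a threshold of 0.05; DESeq2 1.42.0 served as an alternative. SE is the absolute log2 fold change over the square root of F. The floor was 3 counts, 0.129 to 0.168 CPM by library, and intervals are exact 95% Poisson intervals. Named companion genes are, in each list, the 2 called genes of smallest p in each direction and the most abundant gene; others were chosen after their values were seen. Scripts ran in Python 3.11.15 with pandas 2.3.3, numpy 2.4.6, scipy 1.17.1 and matplotlib 3.10.9.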

Additional observations from a re-analysis of the deposited data

How the results depend on the processing

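Alternatives were DESeq2, median-of-ratios scaling, other filters, all 6 columns, replicate number as a block, a fold rule and each library left out. The 1314 genes higher became 2865 with all 6 columns, 399 by the fold rule and 317 (without cko 2) to 1812 (without wt 3) with a library left out; the 1432 lower became 2794 with all 6 columns, 2237 without a filter, 696 by the fold rule and 416 (without cko 2) to 2062 (without wt 1). The averaged column adds a sample without spread of its own. The 1 member higher became 0 with the block, 0 by the fold rule and 0 to 1 with a library left out; the 1 lower became 0 at 10 counts in every library, since *Lin28b* is then not tested, 2 without a filter and 1 to 2 with a library left out. An equal member count can hold other genes: with DESeq2 the 1 lower is *Igf2bp1* (*Lin28b* has no adjusted p), and without wt 1 the 1 higher is *Igf2bp2*. Companion genes higher, 22, became 13 with the block and 9 to 25 with a library left out; those lower, 10, became 17 with all 6 columns, 17 without a filter and 3 to 14. Where no reason is given, the cause was not tested. Block: littermates are named in the study but not by library, samples share only a number, and cko 2 has no wt partner. Across genes, r was taken on deviations of log2 CPM from the group mean. It was 0.143 for wt 1 with cko 1 and 0.0507 for wt 3 with cko 3. With 2 wt libraries these deviations mirror each other (r of -0.0507 for wt 1 with cko 3). The 2 values are therefore not separate checks of pairing. Of the called genes named above, *Igf2bp3*, *Hnrnpa1*, *Ctnnb1*, *Junb*, *Khdrbs1*, *Zbtb20*, *Trim3*, *Olig2* and *Zfp512b* were not called with the block. With 1 wt library the spread comes from cko alone. Let-7 groups were run under these alternatives except the fold rule, chosen after seeing the data. Depth limits *Lin28a*, *Lin28b* and *Igf2bp1*.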

Other observations

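The counts of *Igf2bp1* were uneven between the wt libraries, 36 of 43 being in wt 3. The neuron gene *Stmn2* had 4 counts in wt 1 and 48 in wt 3, and 1, 4 and 2 in the cko libraries. The mesenchymal gene *Col3a1* had 1 and 42 counts in the wt libraries and 1, 0 and 0 in the cko libraries. The choroid plexus gene *Ttr* had 5 and 23, and 2, 7 and 3. Other genes of the same lists were higher in wt 1 than in wt 3. In normalized CPM, *Tubb3* was at 29.5 and 18.5, *Pdgfrb* at 1.05 and 0.480, and *Otx2* at 8.43 and 7.10 in wt 1 and wt 3. These genes were chosen after their values were seen, and their part in the result was not tested.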
